A study of Mus musculus with 6 samples.

Results

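The genes described here encode the subunits of the hypoxia-inducible factor (HIF) and the proteins through which cells sense oxygen: Hif1a, Epas1, Hif3a, Arnt, Arnt2, Egln1, Egln2, Egln3, Vhl and Hif1an. They were selected by name, 10 of the 43043 genes listed, with earlier results of these data known. Transcripts were sequenced in 6 samples of the mouse melanoma line D4M-3A, 3 controls (Ctrl) and 3 with a knockout of Nfkbiz (Nfkbiz KO). For Ctrl, lentivirus delivered a CRISPR-Cas9 construct that was empty, and for Nfkbiz KO one directed against Nfkbiz, which encodes IκBζ, a nuclear cofactor of NF-κB. Both were grown in RPMI-1640 medium with fetal calf serum, the labels name no hypoxic treatment for either group, and the number of clones behind each group is not given in the sources used here.

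HIF is a dimer of an oxygen-regulated alpha subunit (HIF-1α from Hif1a, HIF-2α from Epas1, HIF-3α from Hif3a) and a stable beta subunit (from Arnt or Arnt2), and it activates genes of glycolysis, angiogenesis and pH control. When oxygen is present, the prolyl hydroxylases PHD2, PHD1 and PHD3 (from Egln1, Egln2 and Egln3) mark the alpha subunit, and the VHL protein then directs it to degradation, while the asparaginyl hydroxylase FIH (from Hif1an) blocks its contact with coactivators. Because this control acts largely on the protein, transcript levels do not measure HIF protein or activity, and Egln1 and Egln3 are themselves well-known HIF target genes.

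Nfkbiz had 69.1, 75.2 and 63.4 TPM (exon reads per transcript length, scaled to the same total in every sample) in Ctrl replicates 1, 2 and 3, and 34.8, 34.7 and 35.1 TPM in Nfkbiz KO replicates 1, 2 and 3. The Nfkbiz KO samples were all below the Ctrl samples but kept about 50.7% of the Ctrl level (log2 fold change -0.98, SE 0.056, edgeR), and reads of edited and unedited transcripts are counted together. The paper reports efficient depletion of IκBζ protein in these cells by immunoblot, and transcript counts do not measure that protein. Samples held 32219900 to 44927203 reads on genes, and the Ctrl replicates differed more among themselves (chi-square of 25.8 to 65.9 per degree of freedom for each pair) than the Nfkbiz KO replicates did (3.41 to 5.89). On the second principal component Ctrl replicates 1 and 3 lay at opposite ends (24.5 and -20.6), which is why values without single samples are given beside the results. The melanoma label was checked against 8 melanocyte lineage markers, whose summed level was 1.31 to 1.80 TPM in Ctrl and 1.27 to 1.98 TPM in Nfkbiz KO, with Sox10, Mlana and Tyr at 0 TPM in all 6 samples. By contrast, 4 fibroblast markers summed to 566 to 640 TPM in Ctrl and 466 to 502 TPM in Nfkbiz KO, almost all of it from Col1a1, Col1a2 and Pdgfra, with Thy1 at or near 0. Markers of leukocytes (1.78 to 4.05 TPM summed over 4 genes), endothelial cells (0.55 to 1.85 TPM over 4 genes) and keratinocytes (2.45 to 3.41 TPM over 4 genes) were low in every sample. Among the fibroblast markers Col1a1 (log2 fold change -0.58, adjusted p = 1.18e-05, edgeR) and Col1a2 (-0.21, adjusted p = 0.00738, edgeR) were lower in Nfkbiz KO. Pdgfra was at 0.00 (adjusted p = 0.985, edgeR). The endothelial gene Cdh5 was higher, its mean rising from 0.548 to 1.54 TPM (log2 fold change 1.34, adjusted p = 0.00228, edgeR). The other endothelial markers did not share this rise past the test. Pecam1 was at -0.16 (adjusted p = 0.875, edgeR), and Tek and Kdr were too low to be tested. Whether fibroblast or endothelial cells were present, and their part in the results, was not tested. In bulk RNA, fewer cells of one type and less RNA per cell cannot be told apart.

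Transcripts of both detected HIF-alpha subunits and of 2 of the 3 prolyl hydroxylases were lower in Nfkbiz KO. Of the 9 genes that could be tested, 6 passed the test, all of them lower and 0 higher. The test was the quasi-likelihood test of edgeR with a threshold of 0.05 on p adjusted by Benjamini-Hochberg over the 14419 genes tested. Of those genes 36.6% passed, 18.4% being lower and 18.2% higher. The lower genes were Egln3, Epas1, Hif1a, Egln1, Vhl and Arnt2, whereas Arnt, Egln2 and Hif1an did not pass the test and Hif3a had 0 reads in all 6 samples. A fold change above 2 together with a difference of means above 4 TPM, the study's cut-offs with the unit taken as TPM, was reached by Egln3, Epas1 and Hif1a, against 1.79% of all genes tested, 1.03% being lower and 0.756% higher. Hif1a and Epas1 stand in the study's own list of regulated genes. That list was drawn from these samples together with those of the human melanoma line LOX-IMVI, so their direction there is not independent evidence. The groups did not overlap in 5 of the 9 genes, Hif1a, Epas1, Egln1, Egln3 and Vhl, against 48.4% of all genes tested. The median log2 fold change of the 9 genes was -0.50, and that of all genes tested was -0.02.

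**Figure D1:**
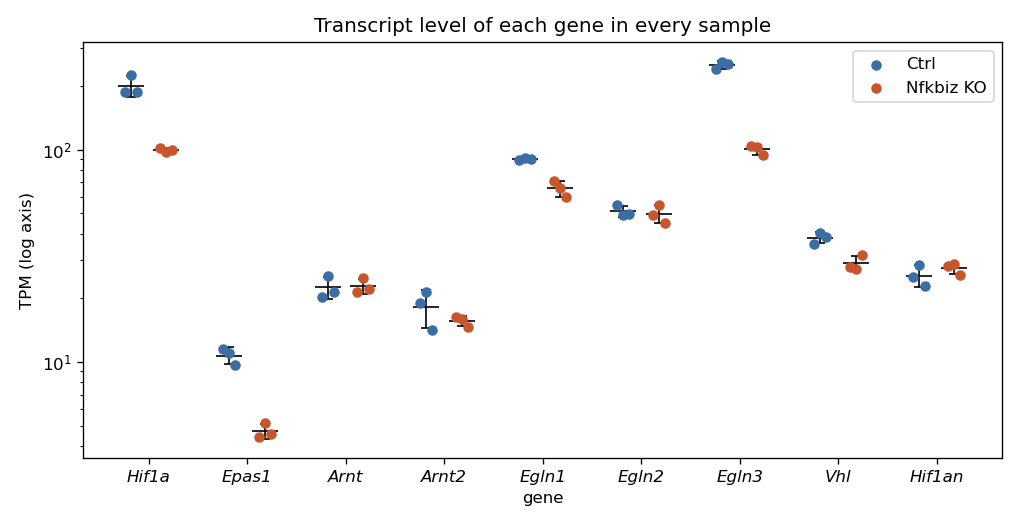
Level in TPM (log axis) of the 9 genes with reads, with 1 point per sample, 3 Ctrl (blue) and 3 Nfkbiz KO (orange), and a bar for the mean with its SD. Points of the groups are fully separated for 5 genes, Hif1a, Epas1, Egln1, Egln3 and Vhl, and overlap for Arnt, Arnt2, Egln2 and Hif1an.

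Promoter sequences of 4 of the 6 lower genes are shown, since Epas1 had no window and Arnt2 passed the test only narrowly, because the consensus core of the hypoxia response element, the site at which HIF binds, can be looked for in them. RefSeq (GRCm38.p6) gave a window from 250 bases before to 50 bases after the start site for 9 of the 10 genes, all but Epas1. Capitals mark the letters ACGTG or GCGTG on either strand, with the reverse strand appearing as CACGT or CACGC. The windows are Hif1a at chr12:73907617-73907916 (plus strand), Egln3 at chr12:54203825-54204124 (minus strand), Egln1 at chr8:124949205-124949504 (minus strand) and Vhl at chr6:113623744-113624043 (plus strand), each printed 5′ to 3′ in the direction of the gene.
Hif1a: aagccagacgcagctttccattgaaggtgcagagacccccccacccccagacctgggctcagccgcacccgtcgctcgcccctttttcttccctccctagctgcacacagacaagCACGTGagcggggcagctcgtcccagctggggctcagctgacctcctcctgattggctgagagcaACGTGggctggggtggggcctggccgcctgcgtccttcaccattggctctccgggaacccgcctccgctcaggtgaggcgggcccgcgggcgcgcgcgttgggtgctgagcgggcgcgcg
Egln3: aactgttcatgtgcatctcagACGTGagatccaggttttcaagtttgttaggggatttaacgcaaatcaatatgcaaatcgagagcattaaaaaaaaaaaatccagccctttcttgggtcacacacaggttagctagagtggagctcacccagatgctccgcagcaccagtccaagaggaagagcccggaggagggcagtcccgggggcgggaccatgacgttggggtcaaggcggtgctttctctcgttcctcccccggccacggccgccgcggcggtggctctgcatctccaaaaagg
Egln1: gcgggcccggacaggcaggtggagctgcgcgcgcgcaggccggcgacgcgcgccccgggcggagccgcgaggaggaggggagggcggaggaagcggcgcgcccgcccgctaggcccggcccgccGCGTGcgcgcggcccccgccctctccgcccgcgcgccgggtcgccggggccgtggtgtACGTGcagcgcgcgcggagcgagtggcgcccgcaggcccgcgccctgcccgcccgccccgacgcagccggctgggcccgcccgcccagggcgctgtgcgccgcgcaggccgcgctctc
Vhl: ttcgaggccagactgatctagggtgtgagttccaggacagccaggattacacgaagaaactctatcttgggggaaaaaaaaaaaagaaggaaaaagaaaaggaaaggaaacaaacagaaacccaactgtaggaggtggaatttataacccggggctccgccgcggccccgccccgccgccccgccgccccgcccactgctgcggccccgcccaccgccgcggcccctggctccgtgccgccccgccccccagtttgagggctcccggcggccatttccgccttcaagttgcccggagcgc

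In Hif1a, 3 matches to ACGTG were found, at -135, -134 and -70 relative to the start site, of which the first and second are the same palindrome, CACGTG, read on both strands. Egln3 held 1 ACGTG, at -229, and Egln1 held 1 ACGTG and 1 GCGTG, at -68 and -126. No match was found in Vhl, Arnt2 or Hif1an, whereas Arnt, Hif3a and Egln2, which were not lower or had no reads, did hold matches. In all, 6 of the 9 genes with a window had ACGTG or GCGTG, as had 44% of the 32544 mouse promoters of the same length. Egln2 alone had a further window, at chr7:27165679-27165978, and held matches in each, so that window did not change the count. Of those promoters, 19.7% held ACGTG and 32.6% held GCGTG. The STAT motif TTCNNNGAA was found in none of the 9 genes and in 8.33% of all promoters. A loose κB motif (GGG and CC with 5 bases of any kind between them) was present in Hif1a, Egln1, Egln2, Egln3, Vhl, Arnt2 and Hif1an, and in 51% of all promoters. These matches are letters in a window and not measured binding sites.

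Hif1a was the main HIF-alpha transcript, and its level roughly halved. It had 186, 225 and 188 TPM in Ctrl and 102, 97.4 and 99.6 TPM in Nfkbiz KO. Every Nfkbiz KO sample lay below every Ctrl sample, and the Nfkbiz KO samples were close together (99.7 ± 2.39 TPM) while Ctrl replicate 2 was the highest (Ctrl 200 ± 21.9 TPM, SD, n = 3 each). The log2 fold change was -1.10 (SE 0.060, adjusted p = 4.53e-08, edgeR), and 3.17% of the genes tested were as low or lower. Leaving out single samples moved it between -1.14 and -1.03. On log2(TPM + 1) values it was -0.99 with limma, just short of the fold change of 2. Hif1a lies on chromosome 12 (GRCm39, 73948149 to 73996321, plus strand) and shares 695 exon bases with the antisense transcript Gm15283. Gm15283 was given 21 to 57 reads per sample and Hif1a 5541 to 14900. Strand was not used in counting, so these numbers do not show how many Hif1a reads came from Gm15283. Other members also share exon bases with antisense genes, the most being 1620 for Egln2 with Cyp2t4.

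Epas1, the HIF-2α gene, was scarce in these cells and fell as well. Its level was 11.5, 10.9 and 9.60 TPM in Ctrl and 4.42, 5.17 and 4.55 TPM in Nfkbiz KO, without overlap between the groups. The log2 fold change was -1.28 (SE 0.095, adjusted p = 5.62e-07, edgeR), and leaving out single samples moved it between -1.36 and -1.22. These values rest on 226 to 737 reads per sample on chromosome 17 (GRCm39, 87061087 to 87140838, plus strand). The mean fell by 5.98 TPM, not far past the cut-off of 4, and with the difference taken in RPKM the gene was no longer called.

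Hif1a made up 94.9% ± 0.633 of the summed HIF-alpha TPM in Ctrl and 95.5% ± 0.464 in Nfkbiz KO, and the HIF-alpha sum fell from 210 ± 22.1 TPM to 104 ± 2.03 TPM (SD, n = 3 each). The shares of single samples overlapped between the groups, from 94.2% to 95.4% in Ctrl and from 94.96% to 95.9% in Nfkbiz KO. No read was counted on Hif3a (chromosome 7), and 0 counts allow up to 0.0668 to 0.0931 CPM in these libraries, by counting error only.

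The HIF-beta genes, which encode the dimerization partners, did not show a decrease that held in most of the alternatives. Arnt had 20.3, 25.5 and 21.4 TPM in Ctrl and 21.4, 24.9 and 22.04 TPM in Nfkbiz KO, with a log2 fold change of -0.12 (SE 0.076, adjusted p = 0.227, edgeR). The samples of the groups intermingled, and on log2(TPM + 1) values the sign turned to 0.03. Arnt2 had 18.8, 21.3 and 14.2 TPM in Ctrl and 16.2, 15.8 and 14.6 TPM in Nfkbiz KO. Its log2 fold change of -0.29 (SE 0.10, adjusted p = 0.0451, edgeR) passed the test narrowly, although Ctrl replicate 3 was below all Nfkbiz KO samples. The call was lost when any sample other than Ctrl replicate 3 was left out, with values of -0.32 to -0.18, and without Ctrl replicate 3 it was -0.42. It was also lost with RLE size factors (adjusted p = 0.0509, edgeR) and with limma on log2(TPM + 1) (-0.19, adjusted p = 0.264).

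The summed TPM of HIF-alpha subunits was 5.22 ± 0.284 times that of Arnt and Arnt2 in Ctrl and 2.73 ± 0.182 times in Nfkbiz KO (SD, n = 3 each). The ratio was 5.06, 5.05 and 5.55 in the Ctrl samples and 2.83, 2.52 and 2.84 in the Nfkbiz KO samples, without overlap (p = 0.1 in a two-sided exact permutation test, which cannot give a smaller p for 3 against 3 samples).

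**Figure D2:**
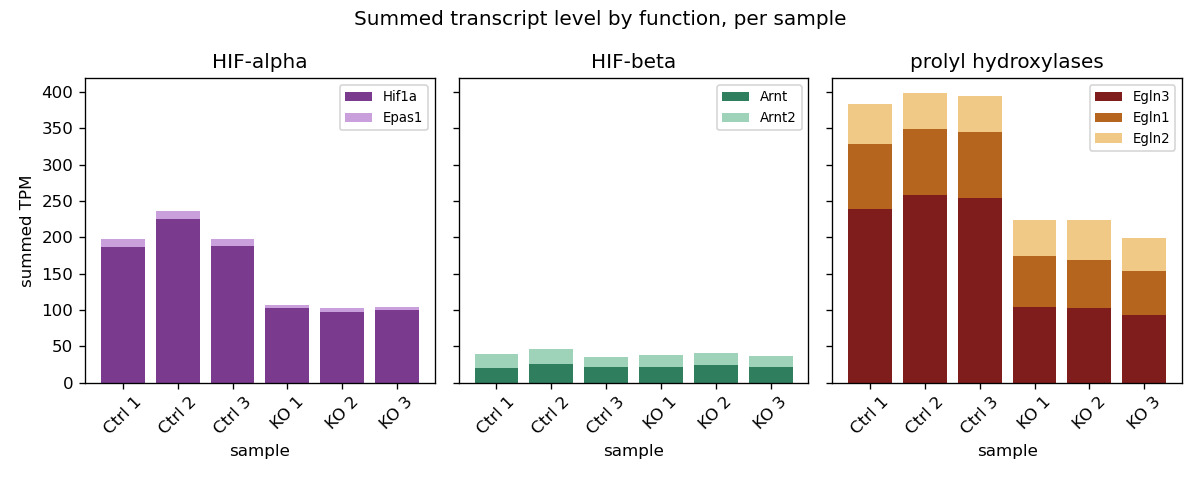
Stacked TPM per sample of the HIF-alpha (Hif1a, Epas1), HIF-beta (Arnt, Arnt2) and prolyl hydroxylase (Egln3, Egln1, Egln2) genes, 3 Ctrl and 3 Nfkbiz KO samples on a common axis from 0. The HIF-alpha and hydroxylase sums are lower in every Nfkbiz KO sample, and the HIF-beta sums, 35.6 to 46.7 TPM in Ctrl and 36.7 to 40.7 TPM in Nfkbiz KO, overlap.

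Among the prolyl hydroxylases, Egln3 was the most abundant in Ctrl and had the lowest log2 fold change. Egln3, which encodes PHD3, had 239, 258 and 254 TPM in Ctrl and 104, 103 and 93.8 TPM in Nfkbiz KO. All Nfkbiz KO samples were far below the Ctrl samples, and the fitted level was 37.4% of Ctrl. The log2 fold change was -1.42 (SE 0.061, adjusted p = 4.93e-09, edgeR), or -1.45 to -1.38 when a single sample was left out, and 1.81% of the genes tested were as low or lower. The gene lies on chromosome 12 (GRCm39, 54225767 to 54250673, minus strand), with no annotated gene overlapping it.

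Egln1 encodes PHD2, the hydroxylase that sets HIF-1α levels in most cells. It had 88.8, 91.5 and 90.3 TPM in Ctrl and 70.9, 66.2 and 59.7 TPM in Nfkbiz KO. The groups did not overlap, and the log2 fold change was -0.56 (SE 0.063, adjusted p = 2.21e-05, edgeR, -0.60 to -0.50 with a sample left out), a level of 68.0% of Ctrl that did not reach a fold change of 2. Egln2, which encodes PHD1, had 54.8, 49.1 and 49.9 TPM in Ctrl and 49.1, 55.0 and 45.2 TPM in Nfkbiz KO. Its samples overlapped, with a log2 fold change of -0.15 (SE 0.078, adjusted p = 0.164, edgeR).

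The makeup of the hydroxylase transcripts differed between the groups. Egln3 made up 63.9% ± 1.24 of the summed prolyl hydroxylase TPM in Ctrl and 46.5% ± 0.658 in Nfkbiz KO, while Egln1 made up 23.0% ± 0.166 and 30.4% ± 1.13, and Egln2 13.1% ± 1.08 and 23.1% ± 1.32 (SD, n = 3 each). For each of the 3 genes, the shares of the Ctrl and Nfkbiz KO samples did not overlap. The ratio of Egln3 to Egln1 was 2.69, 2.82 and 2.82 in Ctrl and 1.46, 1.55 and 1.57 in Nfkbiz KO. The summed hydroxylase TPM was 392 ± 8.24 in Ctrl and 215 ± 14.5 in Nfkbiz KO. Relative to the HIF-alpha sum this was 1.87 ± 0.163 and 2.06 ± 0.142, with overlap between the groups (1.69 to 2.00 in Ctrl and 1.91 to 2.19 in Nfkbiz KO).

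Vhl, which encodes the substrate receptor that binds hydroxylated HIF-alpha, was moderately lower. It had 35.97, 40.5 and 38.8 TPM in Ctrl and 27.9, 27.4 and 31.8 TPM in Nfkbiz KO, and the groups did not overlap. The log2 fold change was -0.50 (SE 0.072, adjusted p = 0.000168, edgeR), or -0.57 to -0.46 with a sample left out. Hif1an had 25.0, 28.7 and 22.7 TPM in Ctrl and 28.1, 28.9 and 25.7 TPM in Nfkbiz KO. The FIH transcript thus overlapped between the groups, with a log2 fold change of 0.02 (SE 0.066, adjusted p = 0.815, edgeR) whose sign turned to -0.02 without Ctrl replicate 3 and to -0.01 without Nfkbiz KO replicate 2.

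**Figure D3:**
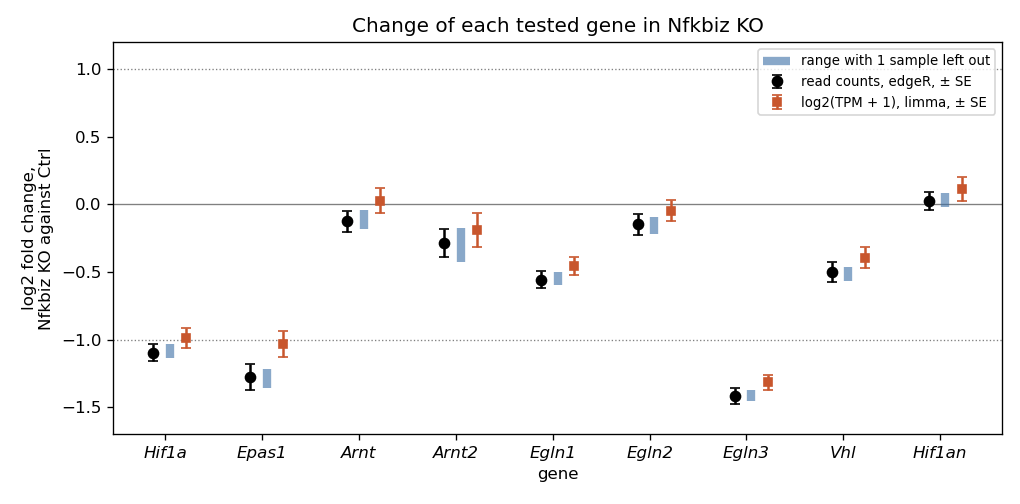
Log2 fold change (Nfkbiz KO over Ctrl) of the 9 tested genes from read counts (edgeR, black, ± SE), its range with 1 sample left out (blue bar) and from log2(TPM + 1) (limma, orange, ± SE), with dotted lines at a fold change of 2. Egln3, Epas1 and Hif1a lie at -1.42 to -1.10 from counts, and each TPM value sits above its count value, and the median of all genes is also higher on that scale (0.08 against -0.02).

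In order of TPM, Ctrl cells had Egln3 above Hif1a, Egln1, Egln2 and Vhl, each separated from the next in all samples. Hif1an, Arnt and Arnt2 followed with overlapping neighbours, and Epas1 and the unread Hif3a came last. In Nfkbiz KO the order of the means was kept, but Egln3 (93.8 to 104 TPM) and Hif1a (97.4 to 102 TPM) overlapped, as did Vhl (27.4 to 31.8 TPM) and Hif1an (25.7 to 28.9 TPM).

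In shape over the 6 samples, measured as the root mean square difference of log2 CPM after centring each gene on its mean, Hif1a was most like Pou6f1, a POU-domain transcription factor gene (0.035), Ms4a4d (0.045) and Loxl2, a lysyl oxidase gene that crosslinks collagen (0.051). Epas1 was most like Galnt18, a glycosyltransferase gene (0.071), Zfp467, a zinc finger gene (0.082), and Enthd1 (0.091). Among all tested genes Egln3 took place 40 in likeness to Epas1 and Hif1a place 72, while Arnt took place 4341. Centring over all 6 samples keeps the difference between the groups, so these places are not separate evidence from the fold changes.

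A list of 24 core HIF target genes was drawn up with earlier results of these data known, so its count is not independent evidence. Their transcripts were lower as a group, with 20 lower, 0 higher and 4 not past the edgeR test, against 18.4% of all genes tested that were lower. Their median log2 fold change was -0.66, and that of all genes tested was -0.02. The study's cut-offs were reached by 5 of them, Adm, Ddit4, Ankrd37, Pdk1 and Bnip3, against 1.79% of all genes tested, 1.03% being lower. Bnip3 only just reached the fold change of 2, with a log2 fold change of -1.003 (-1.12 to -0.92 with a sample left out). Pdk1, Adm and Ddit4 also stand in the study's own list, drawn in part from these samples, which is not independent evidence of their direction.

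Adm, which encodes the vasodilator adrenomedullin, had 28.5, 30.5 and 33.4 TPM in Ctrl and 12.2, 11.1 and 10.1 TPM in Nfkbiz KO. Its log2 fold change was -1.59 (SE 0.11, adjusted p = 3.47e-07, edgeR). Car9, the carbonic anhydrase gene known as a sensitive HIF target, had 30, 40 and 72 reads in Ctrl and 0, 0 and 3 reads in Nfkbiz KO. It was near the limit of detection in Nfkbiz KO, and the summed counts of 3 against 142 give a ratio of 0.021 per gene read (95% exact Clopper-Pearson interval 0.00427 to 0.0625, counting error only). Among genes that serve glycolysis, named after their values were seen, Slc2a1, the glucose transporter gene, had a log2 fold change of -0.47, Hk2, the hexokinase gene, -0.51, Ldha, the lactate dehydrogenase gene, -0.66, Pgk1, the phosphoglycerate kinase gene, -0.67, and Pfkfb4, a phosphofructokinase-regulating gene, -1.07. These 5 were past the test, whereas the aldolase gene Aldoc, at 0.110 to 0.477 TPM, was not (-1.02, adjusted p = 0.127, edgeR). The 4 that did not pass were Car12, Pfkfb3, Aldoc and Epo, named after their values were seen. Log2 fold changes were above 0 for Car12 (0.08), Pfkfb3 (0.20, without overlap between the groups) and Epo (0.08). Epo was at 0 TPM in every sample and was tested only on reads outside its exons.

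The partners of VHL were mostly not past the test. Of 9 genes of the cullin ligase and of neddylation, the modification that activates it, 2 were lower and 0 higher, where 18.4% of all genes tested were lower, so that the count was near that share. Elob, which encodes elongin B, had a log2 fold change of -0.41 (SE 0.078, adjusted p = 0.00124, edgeR), and Nedd8 had -0.26 (SE 0.077, adjusted p = 0.0192, edgeR), while the median of the 9 was -0.12. Without Ctrl replicate 2, 4 were lower, without Ctrl replicate 3, 1 was higher, and without any 1 of the Nfkbiz KO replicates 1 was lower and Nedd8 lost its call (adjusted p up to 0.0701, edgeR).

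Of 17 other regulators of HIF-alpha or PHD stability, 3 were higher, 3 lower and 11 not past the test, about the 18.2% higher and 18.4% lower of all genes tested, with a median log2 fold change of -0.00. Mdm2, the ubiquitin ligase of p53, was the highest at 0.30 (adjusted p = 0.000904, edgeR), followed by Senp1, a SUMO protease gene, at 0.22 (adjusted p = 0.0124, edgeR). Wdr83 was the lowest at -0.29 (adjusted p = 0.0209, edgeR), before Rack1, a ribosomal scaffold gene, at -0.19 (adjusted p = 0.0328, edgeR). The lower calls were few and unstable. There was 1 left without Ctrl replicate 1 or Nfkbiz KO replicate 3, 0 without Nfkbiz KO replicate 1 or 2, and 0 by limma on log2(TPM + 1). By DESeq2, edgeR's likelihood-ratio test, the other count filters, the replicate block or without Ctrl replicate 2, 4 were lower. Without Nfkbiz KO replicate 3, 1 was higher. Siah2, which directs PHD proteins to degradation, was at 0.13 (adjusted p = 0.219, edgeR) and was named after its value was seen.

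In a list of HIF coactivator genes and CITED genes, no gene was called lower. Of its 8 genes, Cited1 and Cited4 were too low to be tested. Of the other 6, Cited2 among them, 3 were higher and 0 lower, with a median log2 fold change of 0.22. Of all genes tested, 18.2% were higher and 18.4% lower. Crebbp, which encodes the acetyltransferase CBP that HIF-alpha recruits, had 10.5, 12.4 and 10.1 TPM in Ctrl and 15.9, 16.02 and 16.04 TPM in Nfkbiz KO. Its log2 fold change was 0.39 (SE 0.064, adjusted p = 0.000453, edgeR), and that of Ncoa1, a nuclear receptor coactivator gene, was 0.27 (SE 0.077, adjusted p = 0.0171, edgeR). Without Ctrl replicate 1, Nfkbiz KO replicate 1 or Nfkbiz KO replicate 2, 1 coactivator gene was higher, and without Ctrl replicate 2, 5 were.

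**Figure D4:**
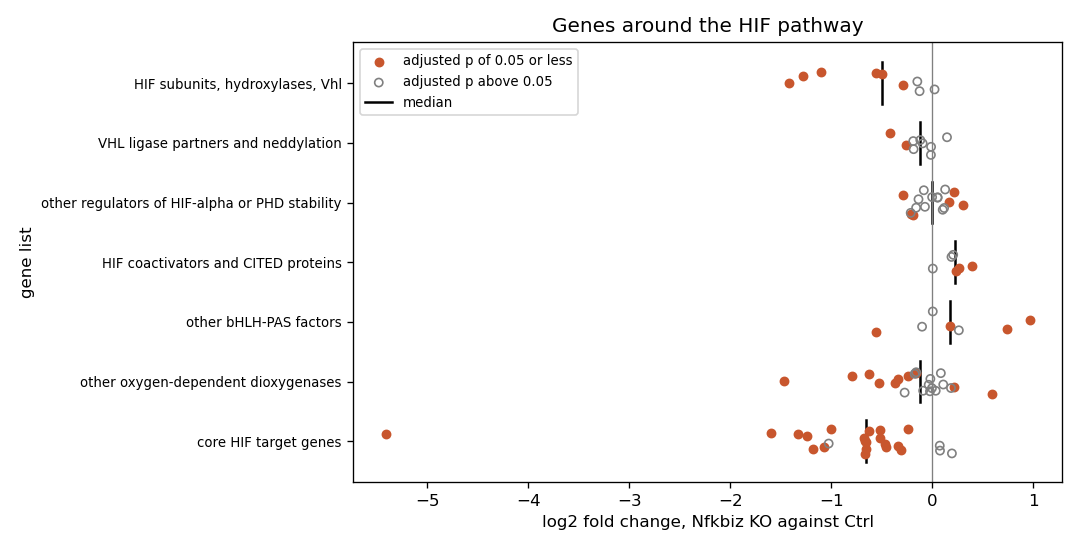
Log2 fold change (Nfkbiz KO over Ctrl) (edgeR) of each tested gene in the 7 lists, with filled points for an adjusted p of 0.05 or less, open points for the rest and a black line at each median. The core HIF target genes have the lowest median (-0.66), next to the HIF subunits, hydroxylases and Vhl (-0.50), and the far left point is Car9, whose fitted value depends on the prior count because it is near 0 in Nfkbiz KO.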

How the data were processed

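RNA was sequenced in 3 Ctrl and 3 Nfkbiz KO samples of D4M-3A cells, grouped by genotype label. The authors mapped reads with CLC Genomics Workbench. The labels name GRCm38 and the methods GRCm39, and coordinates of genes given here are from GENCODE M39 on GRCm39. The authors deposited total and unique counts of reads per gene, without normalization. The deposited TPM and RPKM values are normalized for length and depth from exon reads, whereas counts also hold reads outside exons. The counting did not use strand, so reads of antisense genes cannot be told apart. The columns of each table were read per sample, with decimal commas converted.

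All 14419 genes left by filterByExpr (minimum count 10, minimum total 15) were tested on counts with edgeR 4.0.16 in R 4.3.3 (TMM, quasi-likelihood test, Benjamini-Hochberg adjustment over all genes tested). SE is the log2 fold change divided by the square root of F. The study's thresholds were an adjusted p of at most 0.05, more than a 2-fold change and a difference above 4, whose unit its text does not give and which was taken as TPM. Whether the 3 samples of a group were separate cultures is not given in the labels, and p-values measure the spread between them; the methods speak of independent experiments. The fit was tested on simulated data with 200 changed genes, of which 199 were among the 14239 tested. It recovered 85 of 100 genes changed by 1 and 94 of 99 changed by 1.5 on the log2 scale, and called 11 unchanged genes. Groups were called overlapping on log2 CPM. Alternatives used DESeq2 1.42.0, limma 3.58.1, RLE factors, unique reads, edgeR's likelihood-ratio test, other filters, a replicate block and leaving out each sample. Motifs and figures used Python 3.11.15, pandas 2.3.3 and matplotlib 3.10.9.

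The members and lists were chosen with earlier results of these data known. Named genes were every member, Nfkbiz, in each list up to 2 genes with the largest and 2 with the smallest log2 fold change among those past the test without overlap between groups, and the 3 genes nearest to Hif1a and to Epas1. Other genes were named after their values were seen. The study states no pairing of replicate numbers, and the main fit used none. Deviations of same-numbered samples correlated at 0.0367, -0.0233 and 0.0256, which cannot settle whether samples were handled in pairs. Protein sequences were not used here.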

Additional observations from a re-analysis of the deposited data

How the results depend on the processing

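Hif1a, Epas1, Egln1, Egln3 and Vhl kept their direction and their side of the threshold in all 16 alternatives, Hif1a between -1.14 and -0.99, Epas1 between -1.36 and -1.03 and Egln3 between -1.45 and -1.32. Arnt2 passed the test in 7 of 16. Arnt was reversed with limma, at 0.0274 on log2(TPM + 1), with and without a filter, and 0.0286 on log2(TPM + 0.1), and Hif1an was reversed at -0.0222 and -0.00974 without Ctrl replicate 3 and without Nfkbiz KO replicate 2, in a range up to 0.0870 with samples left out. With the replicate block, 6 members were past the test and 3 past the study's thresholds, and no call of a member changed. With samples left out, 5 to 6 members passed the test. By limma, 2 members, Egln3 and Epas1, passed the study's thresholds. Counts of small lists moved: with samples left out, 1 to 4 VHL partners were lower and 0 to 1 higher, 0 to 4 stability regulators lower and 1 to 4 higher, 1 to 5 coactivators higher, 1 to 2 bHLH-PAS genes higher and 1 to 3 dioxygenases higher. With limma at either pseudocount or without a filter, 1 VHL partner was lower, 1 higher and 0 stability regulators lower, and without a filter 1 coactivator and 1 bHLH-PAS gene were higher. With no filter on counts, 4 VHL partners were lower and 5 coactivators higher. Causes were not tested. Of the core HIF targets, 17 to 21 were lower and 0 higher in every alternative. Low counts limit Car9, Epo and Npas4, and 3 samples per group limit the exact test to p = 0.1.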

Other observations

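Dioxygenases other than the HIF hydroxylases also use oxygen as a substrate. Of 22, 8 were lower, 2 higher and 12 not past the test (edgeR, adjusted p of 0.05 or less), where 18.4% of all genes tested were lower and 18.2% higher, with a median log2 fold change of -0.12. The lower genes included the collagen hydroxylase genes P4ha2 and Plod2. P4ha2 had 52.9, 58.7 and 58.1 TPM in Ctrl and 23.2, 22.1 and 20.6 TPM in Nfkbiz KO, and its log2 fold change was -1.47 (SE 0.065, adjusted p = 6.27e-09, edgeR). It alone of the 22 reached the study's cut-offs, against 1.79% of all genes tested. Plod2 had 94.3, 112 and 98.9 TPM in Ctrl and 64.7, 60.9 and 60.2 TPM in Nfkbiz KO (log2 fold change -0.80, adjusted p = 5.74e-07, edgeR). It stands in the study's own list, drawn in part from these samples. Asph, which hydroxylates aspartyl residues, was higher, with 26.6, 30.3 and 25.7 TPM in Ctrl and 45.5, 44.6 and 45.1 TPM in Nfkbiz KO (log2 fold change 0.59, adjusted p = 2.59e-06, edgeR). The other higher gene was Plod1 (log2 fold change 0.21, adjusted p = 0.011, edgeR), which lost its call without Nfkbiz KO replicate 1 or 2, leaving 1 higher. P4ha1 and Kdm3a are counted both here and among the HIF targets.

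Of 11 other genes of the bHLH-PAS family, to which the HIF subunits belong, 7 were tested, with 3 higher, 1 lower and 3 not past the test, beside 18.2% higher and 18.4% lower of all genes tested. Clock, a circadian factor, had 7.91, 9.32 and 7.11 TPM in Ctrl and 14.9, 14.6 and 15.6 TPM in Nfkbiz KO, and its log2 fold change was 0.74 (SE 0.076, adjusted p = 1.02e-05, edgeR). Its partner Arntl had 22.3, 25.4 and 20.7 TPM in Ctrl and 15.96, 16.5 and 16.9 TPM in Nfkbiz KO, and its log2 fold change was -0.55 (SE 0.063, adjusted p = 2.41e-05, edgeR). Npas4 was low, with 21 to 108 reads per sample, at 0.425 to 1.41 TPM in Ctrl and 1.70 to 2.21 TPM in Nfkbiz KO (log2 fold change 0.97, adjusted p = 0.0367, edgeR). Ahr, the dioxin receptor gene and a further partner of Arnt, was at 0.18 (adjusted p = 0.0319, edgeR), and was named after its value was seen. Without Ctrl replicate 1 or any 1 of the Nfkbiz KO replicates, 1 of the 7 was higher, since Npas4 and Ahr lost their calls (adjusted p up to 0.111 and 0.0996, edgeR).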
